A study of Zea mays with 18 samples.

Results

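The genes described here are listed as cytosolic and plastid forms of glyceraldehyde-3-phosphate dehydrogenase (GAPDH) in the leaf of the maize hybrid An'nong 591. They are 5 gene IDs of the 39471 in the deposited table, taken as a given list of IDs and not by a threshold on their values: gpc1 (GRMZM2G046804), gpc2 (GRMZM2G180625), gpc3 (GRMZM2G071630), gpa1 (GRMZM2G337113) and GRMZM2G162845. The study sequenced leaf RNA of seedlings of the hybrid and its parental lines in 18 libraries, 3 per genotype and treatment, to compare them under heat. The 6 libraries used here are those of the F1 hybrid, a cross of CB25 and CM1. The heat-treated group, F1, was kept at 42 °C by day and 35 °C by night for 2 d. The control group, CF1, stayed at 28 °C by day and 23 °C by night. In both groups the third leaf was taken, and the replicates are described as biological.

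GAPDH links the sugar phosphates of carbon metabolism in both directions. In the cytosol of all plant cells the NAD-dependent enzyme, built from GAPC subunits, oxidises glyceraldehyde-3-phosphate during glycolysis. In the chloroplast a separate enzyme of GAPA and GAPB subunits uses the NADPH made in the light to reduce 1,3-bisphosphoglycerate in the Calvin cycle, and it assembles with the small protein CP12 and phosphoribulokinase when light fails. Because the cytosolic genes are strongly expressed in most tissues, one of them often serves as the internal control of qRT-PCR.

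The names were checked against RefSeq (assembly Zm-B73-REFERENCE-NAM-5.0), which matched 4 of the 5 IDs. The table lists gpc1 under the transcript accession that the study gives for its qRT-PCR internal control, and also under the names GAPC1 and GAPDH. It gives the name GAPA to gpa1. GRMZM2G162845 had no match and is called by its ID, with no role assigned. The name gpb1, of the plastid B subunit, belongs in the table to another gene, GRMZM5G845611, which is not one of the 5. It is described beside them with 3 other genes whose names mark them as GAPDH: gpc4 (GRMZM2G176307), GAPCP (GRMZM2G104632) and gpn1 (GRMZM2G035268). The primers that the study used for its GAPDH control are shown because the values of gpc1 bear on every ratio taken to that control. They are written 5′ to 3′, and no base is marked.
GAPDH-F: atcaacggcttcggaaggat
GAPDH-R: ccgtggacggtgtcgtactt
Each primer has 20 bases, of which 10 in the forward and 12 in the reverse primer are G or C. Which of the similar gpc transcripts they anneal to was not tested, as no transcript sequence was used here.

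Total counts on genes were between 14325790 and 14643512 in the F1 libraries and between 12266758 and 14246363 in the CF1 libraries. Levels are given as FPKM (fragments per kilobase of exon and per unit of library size), the authors' values, which allow genes of different length to be compared. Changes are log2 fold changes of F1 over CF1, estimated from the counts by edgeR's quasi-likelihood test with TMM factors, which scale libraries by the bulk of the genes. The test covered 20622 expressed genes, whose mean FPKM reached 1 in F1 or in CF1, and a call required a change of 2-fold or more together with an FDR no higher than 0.05 over all of them. The 100 genes with the most counts held between 14.74% and 16.04% of the counts in F1 and between 36.55% and 39.29% in CF1, so that FPKM, which divides by the library total, and TMM-scaled values differ between the groups. Over all expressed genes the median change was 0.05 on the log2 scale with TMM factors and 0.85 with library totals, and changes of single genes are to be read against those shifts. The leaf identity of the libraries was checked with 4 mesophyll and 4 bundle sheath genes of C4 photosynthesis, all of which were detected in every library.

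Of the 5 genes, 4 passed the expression threshold and were tested, and 2 were called, gpa1 and gpc1, both lower in F1. Among all expressed genes, 19.9% were called down, 24.1% up and 44% in either direction. With library totals, 1 of the 5 genes was called up (gpc3) and 1 down (gpa1), against 45% and 9.21% of the expressed genes. With all 6 libraries, none of the 5 was called up by edgeR with TMM factors, nor by DESeq2 or limma, which were scaled by median-of-ratios factors. In edgeR with TMM factors, 3 were lower and 1 was higher in F1 at an unadjusted p under 0.05. The share of the expressed genes at that threshold was not counted. By the FDR alone, 3 were lower and 1 was higher in F1, against 34.6% and 36.7% of the expressed genes. These shares rest on 4 genes and are given as a description. In bulk leaf RNA, fewer cells of a type and less RNA per cell cannot be told apart.

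The plastid gene gpa1 had the highest level of the 5 and the largest change. It encodes the A subunit of the Calvin cycle enzyme. Its FPKM was 551.18, 567.21 and 650.01 in the F1 libraries, against 5574.8, 5626.02 and 6018.72 in the CF1 libraries. The groups lay far apart, with the highest F1 library well under the lowest CF1 library. The mean FPKM was 589.5 ± 53.0 in F1 and 5739.85 ± 243 in CF1 (SD, n = 3 each), a ratio of 0.103. By mean FPKM it ranked 56th in F1 and 8th in CF1 among all genes of the table. It took 0.108 ± 0.00969% of all counts in F1 and 1.05 ± 0.0444% in CF1 (SD, n = 3 each). Its log2 fold change was -4.08 (SE 0.18, 95% interval -4.48 to -3.68, edgeR quasi-likelihood adjusted p = 5.63e-08). Scaled by library totals, the value was -3.28 and the gene was called as well.

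The partner of gpa1, gpb1, encodes the B subunit, which carries the regulatory extension of the plastid enzyme. Its FPKM was 647.65, 682.77 and 923.56 in F1, against 3581.67, 3567.72 and 4293.61 in CF1. Again no F1 library reached the CF1 range, although F1 replicate 3 stood above the other two. The log2 fold change was -3.14 (SE 0.21, adjusted p = 5.89e-07, same test). The order of the 2 subunits differed between the groups. Within each library, the ratio of gpa1 to gpb1 in FPKM was 0.851, 0.831 and 0.704 in F1 and 1.56, 1.58 and 1.40 in CF1. Thus gpb1 was the more abundant transcript in every F1 library and gpa1 in every CF1 library. A ratio within a library does not depend on the scaling between libraries, and no test was applied to it.

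Genes that mark the main photosynthetic cells were lower as well. The summed FPKM of the 4 mesophyll markers (the PEP carboxylase gene pep1, the pyruvate phosphate dikinase gene pdk1, the malate dehydrogenase gene mdh6 and GRMZM2G121878, which the sources used here do not name) was between 5495.59 and 6639.55 in F1, against between 18651 and 21077 in CF1. The 4 bundle sheath markers (the NADP-malic enzyme gene me3, the Rubisco small subunit genes ssu1 and rbcS, and the unnamed GRMZM2G001696) summed to between 2398 and 3167 in F1 and between 10623 and 11793 in CF1. With TMM factors all 8 were called down, against 19.9% of the expressed genes, with log2 fold changes from -3.87 to -1.62 in mesophyll markers and from -4.78 to -1.79 in bundle sheath markers. With library totals 3 of 4 were called down in each list, against 9.21% of the expressed genes. The markers not called there were mdh6 (-0.81) and me3 (-0.99). On a scale set by the counts of gpc1, 2 of 4 mesophyll and 3 of 4 bundle sheath markers were called down, against 1212 of 20621 genes. None of the 8 was at 0 in any library. Their part in the lower plastid GAPDH values was not tested.

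**Figure D1:**
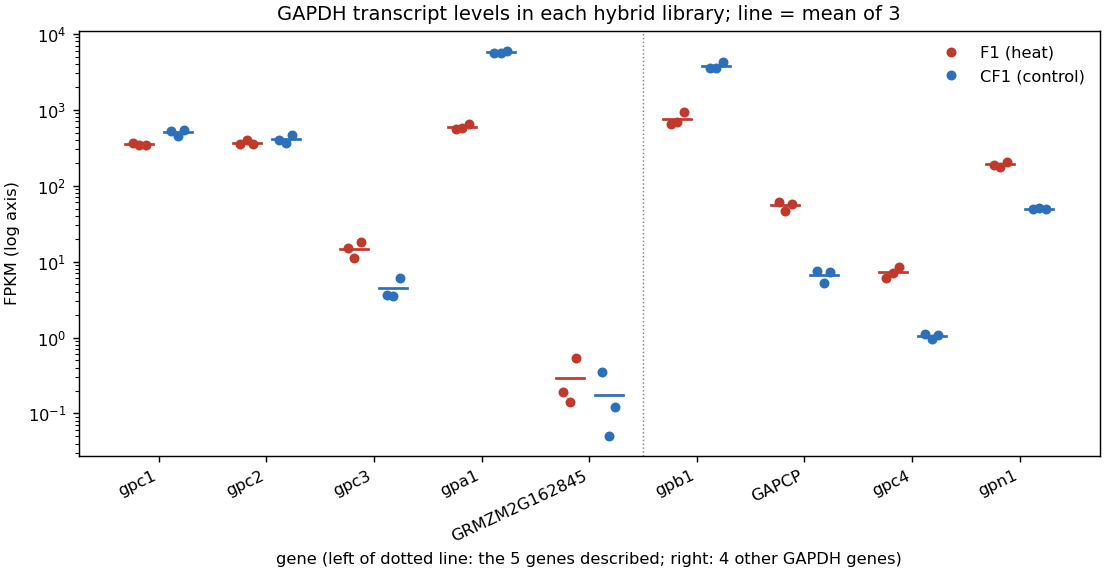
FPKM (log axis) of the 5 genes described, left of the dotted line, and of 4 other genes named as GAPDH, right of it. Points are libraries and lines are means of 3, with F1 (heat) in red to the left of CF1 (control) in blue. The plastid genes gpa1 and gpb1 lie lower in F1, the means of gpc1 and gpc2 lie between 350.3 and 509.9 in both groups, and GRMZM2G162845 stays under 1 in every library.

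The cytosolic gene gpc1, the internal control of the study's qRT-PCR, was called down. Its FPKM was 362.53, 341.04 and 347.33 in F1, against 530.39, 451.14 and 548.08 in CF1, a ratio of means of 0.687. Every F1 library lay under every CF1 library, and the coefficient of variation was 3.15% in F1 and 10.1% in CF1. With TMM scaling, the scaled counts (CPM) were 626.7, 585.4 and 611.2 in F1 and 1576, 1339.6 and 1708 in CF1. The log2 fold change was -1.34 (SE 0.13, 95% interval -1.64 to -1.04, edgeR quasi-likelihood adjusted p = 1.06e-05). The size of the change depended on the scaling. With library totals it was -0.54 (95% interval -0.81 to -0.27, adjusted p = 1.94e-03), under the fold change threshold, and without the 100 most abundant genes in the totals it was -0.98. The direction was the same in each of these fits.

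The second cytosolic gene, gpc2, was at nearly the same level as gpc1 and is likewise a housekeeping gene of glycolysis. It had an FPKM of 355.62, 394.27 and 356.4 in F1, against 403.19, 364.4 and 467.82 in CF1. These ranges overlap, since F1 replicate 2 lay above CF1 replicate 2. After TMM scaling they did not overlap, with 553.5, 609.3 and 564.6 CPM in F1 and 1079, 974.2 and 1312 in CF1. The log2 fold change was -0.96 (SE 0.14, 95% interval -1.28 to -0.65, adjusted p = 1.52e-04, same test), just inside the threshold of 2-fold, so the gene was not called. It was called without CF1 replicate 2 (-1.05), and also without F1 replicate 2, where the value lay just past the threshold. With library totals the value was -0.16, with an interval of -0.44 to 0.12 that holds 0.

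Within a library, gpc1 was lower relative to gpc2 in F1, a comparison of ratios with no test. The ratio of gpc1 to gpc2 in FPKM was 1.02, 0.865 and 0.975 in F1 and 1.32, 1.24 and 1.17 in CF1. All F1 libraries lay under all CF1 libraries in this ratio, although the highest F1 value was close to the lowest CF1 value. The mean was 0.953 ± 0.0794 in F1 and 1.24 ± 0.072 in CF1 (SD, n = 3 each). By mean FPKM over all genes, gpc1 ranked 135th in F1 and 115th in CF1, and gpc2 ranked 125th in F1 and 136th in CF1. The difference between the levels of gpc1 and gpc2 in F1, 350.3 ± 11.0 against 369 ± 22.1 FPKM (SD, n = 3 each), was no larger than the spread of gpc2.

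A minor cytosolic gene, gpc3, had values in the other direction. In maize this gene is known for its induction by lack of oxygen. Its FPKM was 15.23, 11.22 and 17.95 in F1, against 3.59, 3.54 and 6.15 in CF1. No F1 library fell into the CF1 range. It rests on fewer reads than gpc1, gpc2 and gpa1, 292 to 457 counts in F1 and 83 to 134 counts in CF1, and its spread was wider, with a coefficient of variation of 22.9% in F1 and 33.7% in CF1. The log2 fold change was 0.95 (SE 0.25, 95% interval 0.38 to 1.51, adjusted p = 7.06e-03, same test), under the fold change threshold. It was called without CF1 replicate 3 (1.28) or F1 replicate 2 (1.12), and with library totals (1.75). Of the summed FPKM of gpc1, gpc2 and gpc3, gpc3 took 2.02 ± 0.494% in F1 and 0.472 ± 0.115% in CF1 (SD, n = 3 each).

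On the FPKM scale, 2 of the 4 tested genes had every F1 library under every CF1 library (16.2% of the expressed genes did) and 1 had every F1 library above (64.3% did). With TMM scaling, 3 lay entirely below (36% of the expressed genes) and 1 entirely above (39.1%). The gene that differed between these counts was gpc2.

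The remaining ID, GRMZM2G162845, was hardly detected. It had 4, 3 and 11 counts in F1 and 7, 1 and 2 counts in CF1, which is an FPKM of at most 0.54 in any library. The groups overlap, and the mean FPKM was under 1 in both, so it was not tested. No fold change is given for so few counts.

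The 3 other genes with GAPDH names were all called up in F1 with TMM factors, where 24.1% of the expressed genes were called up. GAPCP, whose Arabidopsis counterparts are the glycolytic GAPDH of plastids, had an FPKM of 60.99, 46.98 and 56.63 in F1, against 7.5, 5.16 and 7.23 in CF1, and its log2 fold change was 2.25 (SE 0.17, edgeR quasi-likelihood adjusted p = 1.34e-06). The cytosolic gene gpc4, known like gpc3 from maize under lack of oxygen, had 6.06, 6.99 and 8.61 FPKM in F1, against 1.1, 0.96 and 1.07 in CF1. Its log2 fold change was 1.99 (SE 0.22, adjusted p = 1.88e-05, same test), from 181 to 253 counts per library in F1 and 26 to 32 in CF1. The gene gpn1, for the non-phosphorylating enzyme that makes NADPH in the cytosol, had 186.44, 177.08 and 206.54 FPKM in F1, against 49.04, 50.57 and 49.76 in CF1. Its log2 fold change was 1.13 (SE 0.11, adjusted p = 9.40e-06, same test). For each of the 3, no F1 library overlapped the CF1 range. On the FPKM scale, 64.3% of the expressed genes likewise had every F1 library above every CF1 library. The call held under each scaling and with each library left out. With library totals 45% of the expressed genes were called up, and on the scale of gpc1 12809 genes were. Those scalings move genes upward, so they are no stricter check of a gene already called up.

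The shares of single genes in the GAPDH transcripts are given as a description, with no test. Over all 9 genes, the FPKM summed to between 2186 and 2568 in F1 and between 10070 and 11393 in CF1. The pair gpa1 and gpb1 took 57.4 ± 3.41% of that sum in F1 and 90.7 ± 0.569% in CF1 (SD, n = 3 each). The cytosolic genes gpc1 to gpc3 took 31.7 ± 3.13% in F1 and 8.78 ± 0.573% in CF1. The share of gpn1 was 8.17 ± 0.311% in F1 and 0.474 ± 0.0336% in CF1, and that of GAPCP was 2.37 ± 0.369% in F1 and 0.0629 ± 0.0113% in CF1. The ratio of gpa1 to the sum of gpc1, gpc2 and gpc3 was 0.752, 0.760 and 0.901 in F1, against 5.95, 6.87 and 5.89 in CF1. In other words, the cytosolic transcripts exceeded gpa1 in each F1 library, while gpa1 exceeded them in each CF1 library.

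**Figure D2:**
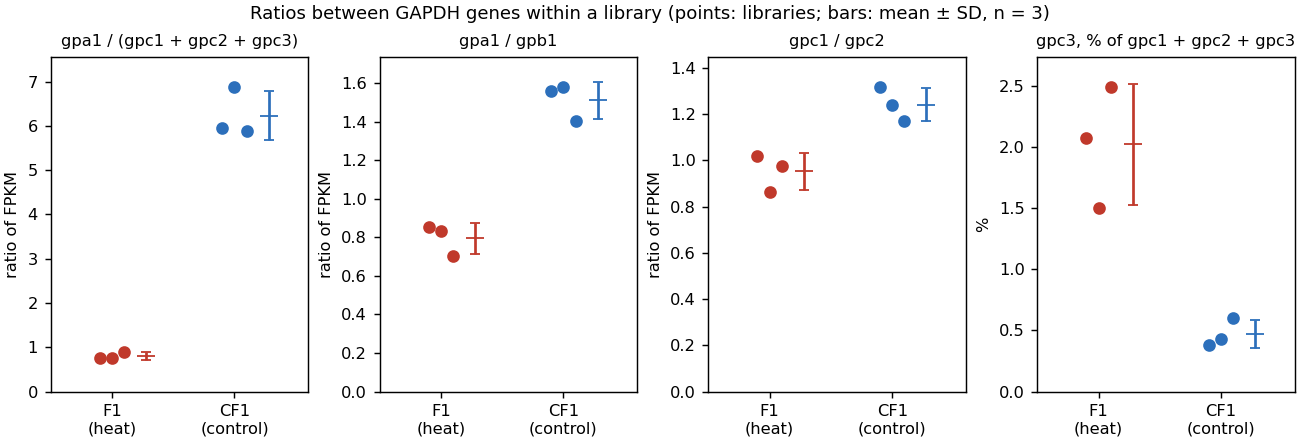
Ratios of FPKM between GAPDH genes within each library, and the share of gpc3 in the cytosolic sum in %. Points are libraries, bars are mean ± SD (n = 3), and F1 (heat) is left of CF1 (control). The ratio of gpa1 to the cytosolic sum is 0.804 ± 0.0838 in F1 and 6.24 ± 0.549 in CF1, and in each of the 4 panels the groups do not overlap.

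Other glycolytic genes were compared from a list of 11 IDs found by name in RefSeq, which include phi1 (glucose-6-phosphate isomerase) under a pair of IDs. The list is a part of glycolysis, with no gene for triosephosphate isomerase, phosphoglycerate mutase or pyruvate kinase. Plastid forms could not be left out, as the names give no location. Of the 11 IDs, 2 were called up, 5 were called down and 4 were not called. Among the expressed genes, 24.1% were called up and 19.9% down. Both IDs of phi1 are among the 5 called down. The median log2 fold change of the list was -0.20, against 0.05 over all expressed genes. Without CF1 replicate 3, 3 were called down, as aldolase1 (-0.99) and the second ID of phi1 (-0.91) no longer were. The lowest value was that of eno1 (enolase), with an FPKM of 57.06, 68.09 and 71.24 in F1, against 109.98, 96.91 and 124.37 in CF1, and a log2 fold change of -1.56 (SE 0.14, adjusted p = 6.20e-06, same test). The highest was that of another enolase gene, GRMZM2G009030, a weakly expressed one with 1.53, 3.82 and 2.59 FPKM in F1, against 0.24, 0.41 and 0.28 in CF1, which rest on 45 to 113 counts in F1 and 7 to 11 counts in CF1 (log2 fold change 2.28, SE 0.43, adjusted p = 8.61e-04, same test). The lower calls of this list depended on the scaling, because with library totals 3 were called up and none was called down, at a median of 0.61, where 45% of the expressed genes were called up and 9.21% down.

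Because gpc1 was the internal control of the qRT-PCR, it was set beside 6 genes taken here as candidate reference genes. Only act1 (GRMZM2G126010), an actin gene, has a RefSeq name that says what it encodes, and the other 5 are given by ID. The actin gene went the other way in value, with an FPKM of 33.48, 38.84 and 32.43 in F1, against 10.45, 8.33 and 11.83 in CF1. Its log2 fold change was 0.97 (SE 0.15, 95% interval 0.65 to 1.30, adjusted p = 1.91e-04, same test), so it was not called. It was called up without CF1 replicate 3 (1.12), without F1 replicate 3 (1.01), and just past the threshold without F1 replicate 1 and with no filter on low values. With library totals it was called up at 1.78. The ratio of act1 to gpc1 in FPKM was 0.0999 ± 0.0122 in F1 and 0.0199 ± 0.00157 in CF1 (SD, n = 3 each), a log2 change of 2.32 that no scaling between libraries alters. Of the 6 candidates, 1 was called down (GRMZM2G018103, -1.19) and none was called up with TMM factors and all 6 libraries. Among the expressed genes, 19.9% were called down and 24.1% up in that fit. With library totals GRMZM2G018103 was not called (-0.39). With TMM factors GRMZM2G393334 had the value nearest to 0, -0.19 (95% interval -0.41 to 0.02), with 29.23, 28.52 and 29.37 FPKM in F1 and 20.59, 18.53 and 18.17 in CF1. The others lay between -0.51 and -0.37. With library totals GRMZM2G393334 turned to 0.60 (95% interval 0.39 to 0.82), and the value nearest to 0 was that of GRMZM2G102471, 0.29.

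The steadiness of a gene over all 6 libraries was described by the SD of its log2 TMM-scaled CPM. With 2 groups of 3, this SD holds the difference between F1 and CF1 and is no separate measure from the fold change. It was 0.74 for gpc1, and 73.4% of the expressed genes had a smaller SD. For gpc2 it was 0.54 (58.1% smaller), for act1 0.56 (59.8%), for GRMZM2G166694 0.22 (15.8%) and for GRMZM2G393334 0.12 (3.23%). The remaining candidates had 0.24 (GRMZM2G425377, 19.6%), 0.30 (GRMZM2G102471, 27.6%) and 0.65 (GRMZM2G018103, 67.3%). On the FPKM scale the order was another one, as gpc2 had an SD of 0.15 with 5.83% of genes below it and gpc1 had 0.31 with 24.4% below it. On that scale GRMZM2G166694 had 0.25 (16.9%), GRMZM2G393334 had 0.32 (26.2%), slightly more than gpc1, and act1 had 0.94 (81.2%). The remaining candidates had 0.28 (GRMZM2G425377, 21%), 0.18 (GRMZM2G102471, 8.52%) and 0.22 (GRMZM2G018103, 13.8%), each less than gpc1. The order of these genes by steadiness therefore moved with the scaling.

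**Figure D3:**
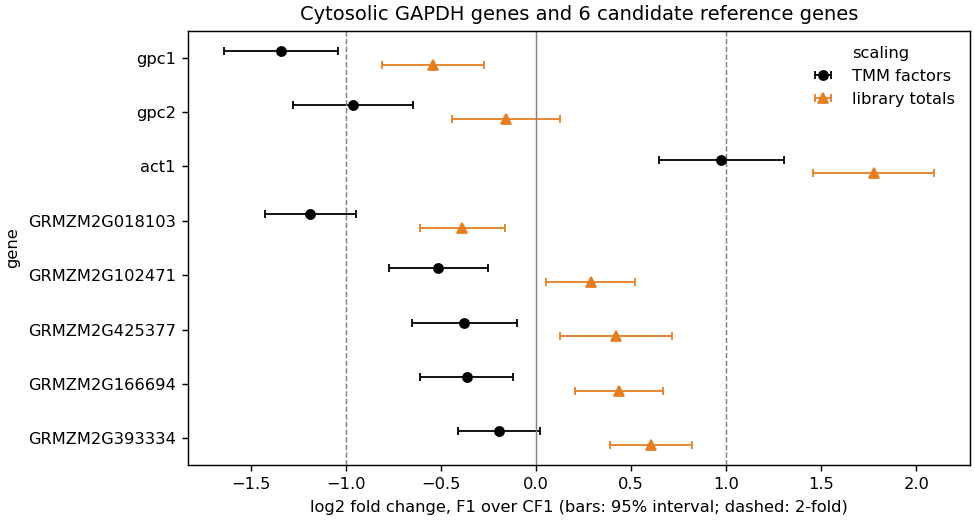
Log2 fold change, F1 over CF1, of gpc1, gpc2 and 6 candidate reference genes with TMM factors (black circles) and with library totals (orange triangles). Bars are 95% intervals and dashed lines mark a 2-fold change. With TMM factors gpc1 is at -1.34 and act1 at 0.97, and library totals move all 8 genes to the right.

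To see what a scale set by gpc1 does to the other genes, the fit was repeated with the counts of gpc1 as the size of each library. On that scale gpa1 changed by -2.75 and gpb1 by -1.80 on the log2 scale, gpc2 by 0.39 and gpc3 by 2.29. The median of all expressed genes was then 1.38, in place of 0.05 with TMM factors, and 12809 genes were called up and 1212 down, in place of 4963 and 4102. The 10 genes that the study assayed by qRT-PCR against this control were called 7 up and 3 down with TMM factors. The study had picked these 10 at random from heat-response genes already called in these same data. That all 10 were called here was therefore largely fixed in advance. On the scale of gpc1, 7 were called up, 1 was called down and 2 were not called, with log2 fold changes from -3.03 to 7.88. None of the 10 calls turned in direction. The scale of gpc1 raises the log2 fold changes of all genes by about the same amount, so the 7 calls up could not have turned. The study itself reported a significant correlation between its qRT-PCR and RNA-Seq changes in each genotype. A correlation is not altered when the same amount is added to every log2 change, so it could not show a change of the control.

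**Figure D4:**
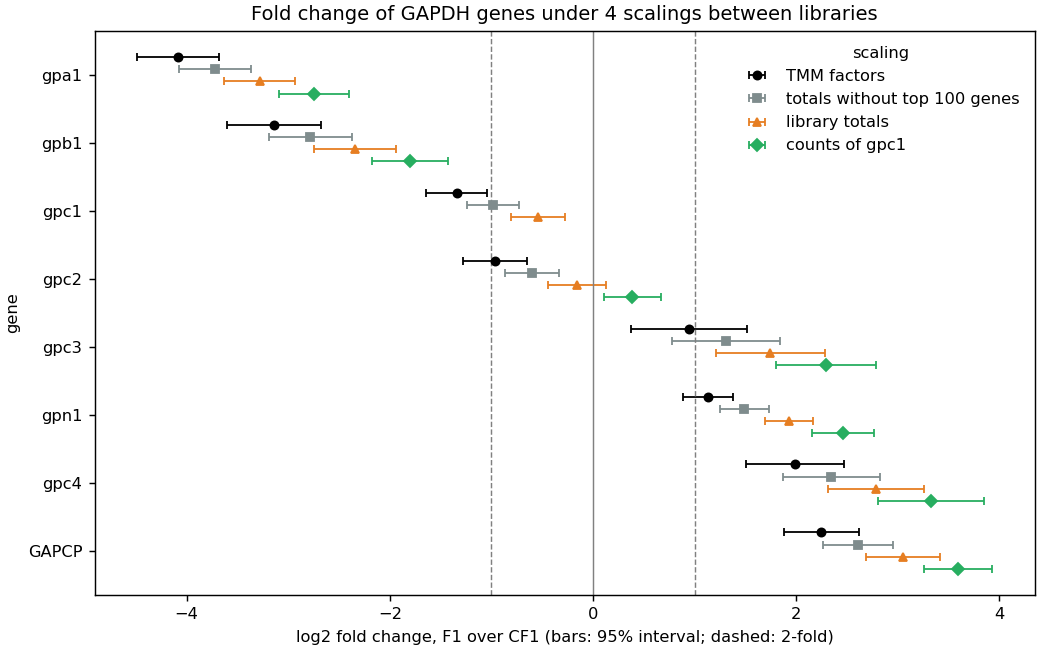
Log2 fold change, F1 over CF1, of 8 GAPDH genes under 4 ways of scaling the libraries, with 95% intervals as bars and dashed lines at a 2-fold change. The fold change of gpa1 runs from -4.08 with TMM factors to -2.75 on the scale of gpc1, gpc2 lies on both sides of 0, and gpc1 has no value on its own scale.

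For each tested gene, the most similar genes over the 6 libraries were looked up in a set of 100 expressed genes, by the Pearson correlation of the TMM-scaled log2 values. The set held genes with a mean count of at least 100 and a RefSeq symbol that does not start with LOC. It is a small part of the 18907 IDs matched to RefSeq, so genes outside it may be closer. With 2 groups of 3, such a correlation holds the difference between F1 and CF1, and it is given as a description. For gpa1 the closest were shbp1 (GRMZM5G814089, r = 0.999, with a second ID at 0.998) and SMK2 (r = 0.998), and 25 of the 100 genes had r over 0.95. For gpc1 they were lw1 (0.993), pht1 (0.992) and mbd115 (0.991), with 30 of the 100 over 0.95, and for gpc2 they were ts1 (0.994), opr2 (0.987) and mbd115 (0.982). For gpc3 the closest was lox1, a lipoxygenase gene, at 0.989, the only one over 0.95, followed by PPR10 (0.925) and lox3 (0.924).

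The cytosolic genes are similar in sequence, and reads that fit more than one of them could be counted for either or dropped, so the split among gpc1, gpc2, gpc3 and gpc4 is uncertain to an extent that was not examined.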

How the data were processed

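RNA of the third leaf was sequenced by the authors as paired-end libraries, cleaned of adapter and low-quality reads, aligned to the B73 genome (RefGen_v3) and counted per gene model (HISAT2 2.0.1 and HTSeq 0.6.1 in the submitters' processing notes). They deposited raw counts per gene and FPKM, which the authors derived from the counts and the exonic length in the same table. Whether the counting used strand or dropped shared reads is not given in the sources used here. The 24 per-sample columns of other libraries carry names that match no label, so they were not used.

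Genes whose mean FPKM reached 1 in F1 or CF1 were tested by edgeR 4.0.16 (glmQLFit, glmQLFTest, TMM) on the 3 F1 and 3 CF1 libraries, with Benjamini-Hochberg adjustment. SEs were derived from the log2 fold change and its F statistic. Alternatives were library totals, median-of-ratios size factors, DESeq2 1.42.0, limma 3.58.1 on log2(scaled FPKM + 1) or + 0.1, no filter, a replicate block and each library left out. Scaling by gpc1 and totals without the 100 top genes were chosen after seeing the data. The members and lists were chosen with earlier results of these data known. The RefSeq table gives symbols but no descriptions, so lists were matched by symbol and the Calvin cycle list found no gene. Genes named are the members, other GAPDH genes, the extremes of the glycolysis list, and the 3 most correlated with each tested member among the 100 genes searched. The genes phi1, aldolase1, mdh6 and me3 were singled out after their values were seen. The reference candidates were a planned list of genes used as references in maize. Which of them to single out was decided after their values were seen.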

Additional observations from a re-analysis of the deposited data

How the results depend on the processing

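The calls of gpa1 and gpb1 were the same under each alternative run. With library totals, gpc1 was no longer called (-0.54) and gpc3 was (1.75), so that 1 gene was called up and 1 down, and 9278 genes were called up and 1900 down in all. With the 100 top genes left out of the totals, gpc1 was at -0.98 and gpc3 at 1.31, again 1 gene up and 1 down. In that fit 6666 of the 20622 expressed genes were called up and 2891 down. On the scale of gpc1, gpc2 turned to 0.39, gpc3 was at 2.29, and 12809 genes were called up and 1212 down. With each library left out in turn, the log2 fold changes ran from -4.17 to -4.02 for gpa1, from -3.33 to -3.02 for gpb1, from -1.43 to -1.26 for gpc1, from -1.05 to -0.83 for gpc2 and from 0.77 to 1.28 for gpc3. In those fits, 2 to 3 of the 5 genes were called down and 0 to 1 up, and 4002 to 4162 genes were called down and 4786 to 4985 up in all. The replicate numbers are shared by F1 and CF1, but the deviations of same-numbered libraries correlated at 0.0507, -0.0163 and 0.0294, so they were not taken as pairs. With the replicate number as a block, 4903 genes were called up and 4045 down, and the log2 fold changes of gpa1, gpc1, gpc2 and gpc3 were -4.09, -1.34, -0.95 and 0.96, with the same calls. The ratios among GAPDH genes within a library kept their direction with raw counts and with each library left out. The ratio of act1 to gpc1 was recomputed with raw counts only, at a log2 change of 2.32. Low counts limit the statements on GRMZM2G162845, the enolase gene GRMZM2G009030, gpc4 and gpc3.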
